A study of Homo sapiens with 3 samples.

Results

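Inflammatory cytokine and NF-kappaB genes were examined in Cal-33 cells, an established line from a human tongue squamous cell carcinoma. The module was a list of 39 gene symbols, chosen by name with earlier results of these data known. All 39 were found among the 28890 genes of the deposited expression table. The cells were grown in DMEM with fetal bovine serum, were labelled wild type in every group, and were transfected with 1 of 3 small interfering RNAs (siRNAs) 72 h before harvest. The groups were an siRNA against p53 (sip53), an siRNA against BACH1 (siBACH1) and a control siRNA (siControl). Each group was 1 library of 1 cell line, so replicate spread could not be measured and no test was made; every value is a description of the libraries themselves.

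NF-kappaB is a family of dimeric transcription factors that is held in the cytoplasm by inhibitor (IkappaB) proteins. Signals from the receptors for tumour necrosis factor (TNF) and interleukin 1 release it, and it then switches on cytokines, chemokines and its own inhibitors. Squamous carcinoma cells of the head and neck are known for interleukin 1 and chemokine production. BACH1 is a heme-responsive repressor that binds antioxidant response elements together with small MAF proteins, and p53 is a tumour suppressor that controls transcription after genotoxic stress.

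Promoters were examined because many of these genes are known NF-kappaB targets. Windows of 300 bases (250 before to 50 from the start of transcription) were taken from RefSeq, build GRCh38.p14, which had an entry for 29 of the 39 genes. The NF-kappaB consensus, searched on both strands, had a match in 12 of the 29 windows (41.4%), against 10.8% of all 27305 windows of that length. The 12 were IL6, CXCL1, CXCL2, CXCL3, CXCL5, CCL20, NFKB1, REL, NFKBIA, TNFAIP3, BIRC3 and LCN2. The AP-1 motif TGANTCA matched in 4 windows (13.8%, against 7.76% of all windows), the antioxidant element core TGACNNNGC in 6 (20.7%, against 13.6%) and the TATA motif TATAAA in 8 (27.6%, against 12.0%). In 0 of the 29 windows did matches of different motifs overlap. These matches describe letters only, and binding was not measured.

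**Figure D1:**
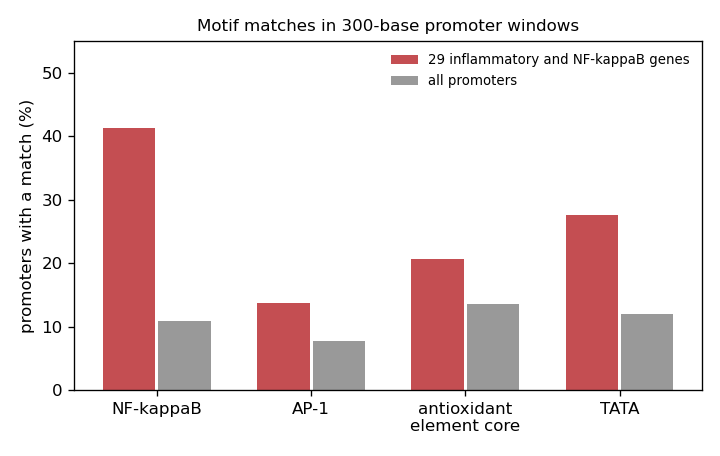
Share of 300-base promoter windows (in percent) with a match to each of 4 motifs, for 29 inflammatory and NF-kappaB genes (red) and all 27305 RefSeq windows (grey). The NF-kappaB bars stand at 41.4% and 10.8%.

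The windows of CCL20, CXCL1, CXCL2, CXCL3 and IL1R1 are shown. Of these genes, CCL20 and IL1R1 passed the fold threshold used below in 1 or more main comparisons. CXCL1 and CXCL3 did not, and CXCL2 stayed under 1 TPM. Capitals mark the NF-kappaB match in the first 4 and the antioxidant element core in IL1R1. All are written 5′ to 3′ on the gene's strand. The windows lie at chr2:227813592-227813891 (CCL20, plus strand), chr4:73869143-73869442 (CXCL1, plus), chr4:74099146-74099445 (CXCL2, minus), chr4:74038640-74038939 (CXCL3, minus) and chr2:102104354-102104653 (IL1R1, plus).
CCL20: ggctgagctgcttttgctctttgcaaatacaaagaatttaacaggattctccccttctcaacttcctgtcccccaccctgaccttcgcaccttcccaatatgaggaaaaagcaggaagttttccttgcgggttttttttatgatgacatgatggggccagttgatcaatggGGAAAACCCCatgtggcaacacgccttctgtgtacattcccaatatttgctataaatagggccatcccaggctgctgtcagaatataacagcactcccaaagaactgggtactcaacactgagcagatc
CXCL1: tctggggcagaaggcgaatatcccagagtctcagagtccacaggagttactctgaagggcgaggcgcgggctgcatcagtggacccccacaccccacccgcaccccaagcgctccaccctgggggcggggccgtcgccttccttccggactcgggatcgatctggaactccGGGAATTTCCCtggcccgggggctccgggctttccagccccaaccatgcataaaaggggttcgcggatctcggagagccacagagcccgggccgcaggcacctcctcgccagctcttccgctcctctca
CXCL2: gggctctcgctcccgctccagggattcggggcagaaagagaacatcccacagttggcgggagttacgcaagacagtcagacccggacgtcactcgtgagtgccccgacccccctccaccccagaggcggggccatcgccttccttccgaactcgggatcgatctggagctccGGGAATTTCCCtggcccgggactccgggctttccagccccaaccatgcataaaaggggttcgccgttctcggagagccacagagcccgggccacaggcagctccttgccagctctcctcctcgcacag
CXCL3: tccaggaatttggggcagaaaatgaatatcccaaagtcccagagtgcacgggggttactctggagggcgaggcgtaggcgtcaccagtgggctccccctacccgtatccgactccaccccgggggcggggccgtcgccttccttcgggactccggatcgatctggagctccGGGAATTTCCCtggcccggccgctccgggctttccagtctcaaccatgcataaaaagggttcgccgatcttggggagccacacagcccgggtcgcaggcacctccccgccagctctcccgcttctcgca
IL1R1: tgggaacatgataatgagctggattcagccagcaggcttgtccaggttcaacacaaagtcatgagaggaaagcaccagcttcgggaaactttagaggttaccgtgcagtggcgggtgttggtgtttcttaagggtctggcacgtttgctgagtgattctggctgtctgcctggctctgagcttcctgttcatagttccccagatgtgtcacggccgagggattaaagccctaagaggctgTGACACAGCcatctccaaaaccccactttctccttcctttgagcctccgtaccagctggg
The 3 CXCL genes carried the same 11-base run, GGGAATTTCCC, in which a match on each strand overlaps. It lay from -79 to -69 in CXCL1 and CXCL3 and from -78 to -68 in CXCL2, counting the first transcribed base as 0. The CCL20 match, GGAAAACCCC, lay from -79 to -70, and the IL1R1 match, TGACACAGC, from -10 to -2.

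Levels are given as transcripts per 1000000 (TPM), a length-normalised share of each library that can be compared between genes. Most of the module was weakly expressed. Of the 39 genes, 7 were listed at 0 in all 3 libraries, 2 stayed under 1 TPM, 14 peaked between 1 and 5 TPM, and 16 reached 5 TPM in 1 or more libraries. The 10 genes at 20 TPM or more in every library were IL1B, IL18, CSF1, CXCL16, IL1RN, NFKB1, RELA, NFKBIA, TNFAIP2 and LCN2. Summed over the module, the level was 581 TPM in sip53, 566 TPM in siBACH1 and 562 TPM in siControl.

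**Figure D2:**
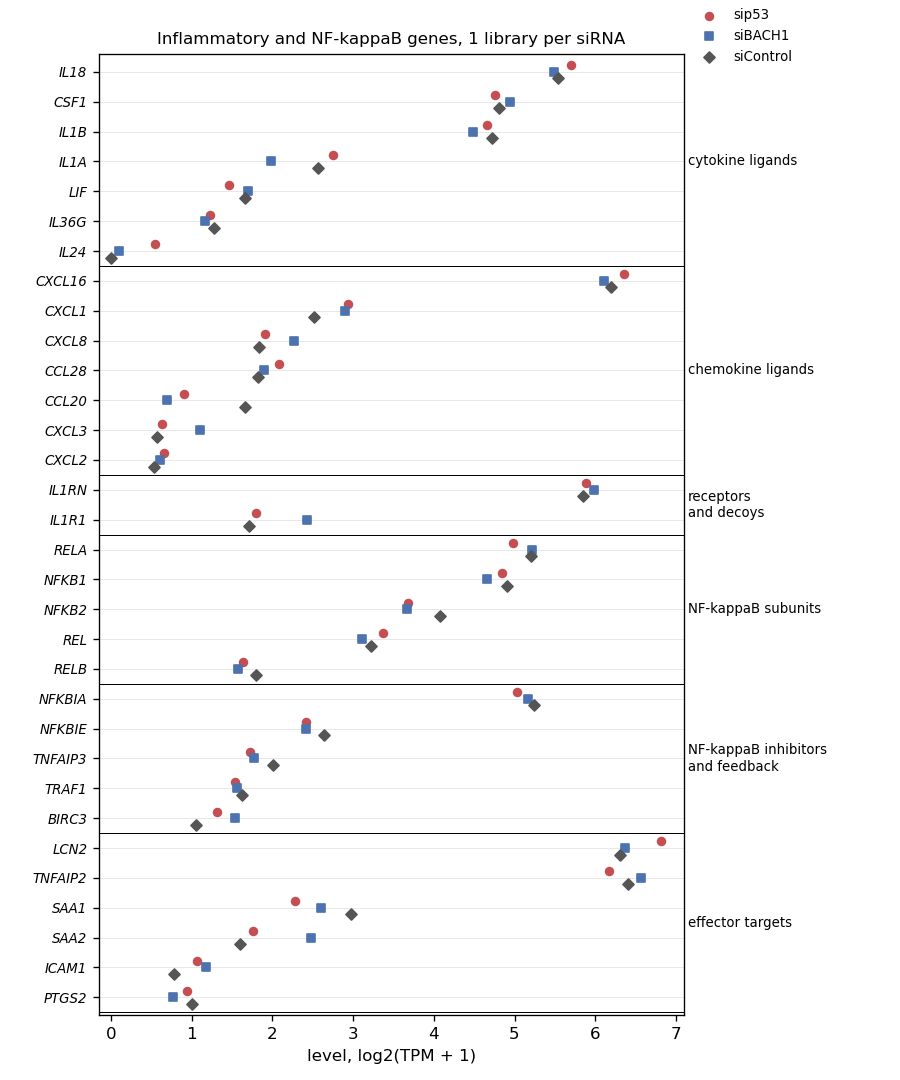
Level of each gene with TPM above 0 in 1 or more libraries, as log2(TPM + 1), grouped by role, with 1 point per library (sip53 circle, siBACH1 square, siControl diamond). The 3 points of most genes lie close together, while CCL20, IL1A, IL1R1, SAA1 and SAA2 spread more widely.

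The libraries had the squamous markers of the labelled cell type. All 8 squamous epithelial markers (KRT5, KRT14, KRT6A, KRT13, DSG3, CDH1, EPCAM and SFN) were at 5 TPM or more in every library, and they summed to 9851 TPM in sip53, 6523 TPM in siBACH1 and 10761 TPM in siControl. Most of that sum came from KRT5, at 4375 TPM in sip53, 3101 TPM in siBACH1 and 4883 TPM in siControl, and KRT13, at 3679 TPM in sip53, 2087 TPM in siBACH1 and 3821 TPM in siControl. Singly, 7 of the 8 were lowest in siBACH1, EPCAM by little (155 TPM in sip53, 151 TPM in siBACH1 and 159 TPM in siControl), while SFN was lowest in sip53 (542 TPM in sip53, 544 TPM in siBACH1 and 708 TPM in siControl). Of 10 immune markers, 3 reached 1 TPM (CD68, CD14 and CSF1R), with MS4A1 and TYROBP listed at 0 throughout and the leukocyte antigen PTPRC at 0.196, 0.133 and 0 TPM in sip53, siBACH1 and siControl. The immune list summed to 36.7 TPM in sip53, 42.7 TPM in siBACH1 and 39.8 TPM in siControl. Of 6 fibroblast markers 2 reached 1 TPM (COL1A1 and DCN), and the list summed to 5.05 TPM in sip53, 4.74 TPM in siBACH1 and 4.18 TPM in siControl. Of 4 endothelial markers 2 reached 1 TPM (VWF and CDH5), with KDR listed at 0. CDH5 was at 17.0 TPM in sip53, 18.7 TPM in siBACH1 and 16.0 TPM in siControl. It made up most of the endothelial sum of 18.3 TPM in sip53, 20.3 TPM in siBACH1 and 17.9 TPM in siControl. The BACH1 transcript stood at 4.30 TPM in siBACH1, 19.6 TPM in sip53 and 15.2 TPM in siControl. In a bulk library, fewer cells of a type and less RNA per cell cannot be told apart.

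Each knockdown was set against siControl, to ask which inflammatory transcripts differ when p53 or BACH1 is targeted, and both comparisons share that control library. Differences are log2((TPM + 1)/(TPM + 1)), a scale on which the change of a low gene comes out too small, while a fold is a TPM divided by a TPM. Genes with 1 TPM or more in 1 or both libraries counted as measured, and a gene was called higher or lower at 1.5-fold on the log2 scale, a difference of 0.58.

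In sip53 against siControl, 0 of 29 measured module genes were called higher, against 1.54% of all 12412 measured genes, and 2 were called lower, against 2.88%. The 2 were the chemokine CCL20 and the acute-phase gene SAA1. The module's median difference was -0.05, beside -0.07 over all measured genes. In siBACH1 against siControl, 2 of 30 were called higher, against 1.78% of 12437 genes, and 1 was called lower, against 3.69%. The higher genes were the interleukin 1 receptor IL1R1 and SAA2, and the lower one was again CCL20. The median was -0.06, beside -0.08 over all measured genes. After rescaling to a median ratio of 1, the calls over all genes stood at 242 higher and 266 lower in place of 191 and 357 in sip53, and at 290 and 340 in place of 221 and 459 in siBACH1, while the same module genes were called.

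The share of genes called depended on level. Among genes whose higher library lay at 1 to 5 TPM, 8.13% were called lower and 5.48% higher in sip53, and 9.29% and 6.37% in siBACH1. At 5 TPM or more these shares were 1.68% and 0.643% in sip53, and 2.40% and 0.722% in siBACH1. CCL20, IL1R1 and SAA2 peaked below 5 TPM and SAA1 above it.

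**Figure D3:**
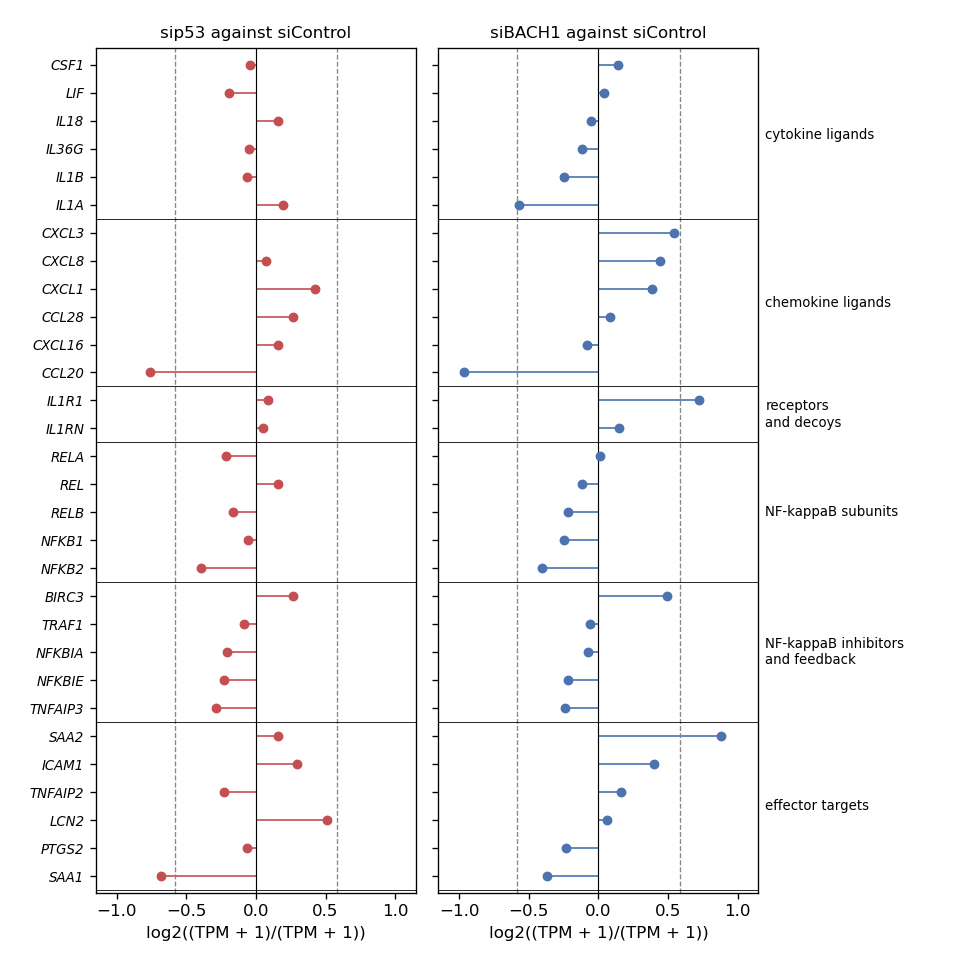
Difference of each measured gene from siControl, as log2((TPM + 1)/(TPM + 1)), in sip53 (left) and siBACH1 (right), grouped by role, with dashed lines at 1.5-fold. CCL20 and SAA1 lie past the lower line on the left, CCL20 past the lower line and IL1R1 and SAA2 past the upper line on the right.

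The interleukin 1 family gave the most abundant cytokine ligand of the module, IL18. This cytokine of epithelia was at 50.9 TPM in sip53, 43.7 TPM in siBACH1 and 45.4 TPM in siControl. IL1B, the secreted interleukin 1 beta, was at 24.3 TPM in sip53, 21.3 TPM in siBACH1 and 25.5 TPM in siControl. IL1A, the interleukin 1 alpha that keratinocytes hold as an alarmin, was at 5.74 TPM in sip53, 2.97 TPM in siBACH1 and 4.90 TPM in siControl. The siBACH1 library was thus the lowest of the 3 for each of these genes, but the IL18 difference between siBACH1 and siControl, -0.05, turned to 0.03 after rescaling. For IL1A its difference from siControl was -0.57, just inside the threshold, and -0.63 after a correction for transcript GC content and length.

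IL1RN, the antagonist that occupies the interleukin 1 receptor without signalling, exceeded both agonists together in every library. It was at 58.3 TPM in sip53, 62.5 TPM in siBACH1 and 56.4 TPM in siControl. The ratio of IL1RN to summed IL1A and IL1B was 1.94 in sip53, 2.57 in siBACH1 and 1.86 in siControl. IL1R1, the signalling receptor, was at 2.48 TPM in sip53, 4.39 TPM in siBACH1 and 2.27 TPM in siControl. Its siBACH1 level was 1.93-fold the control level (difference 0.72, or 0.37 with a pseudocount of 5 TPM, which ends the call), and its sip53 difference was 0.09. IL1R1 is a protein-coding gene on chromosome 2, from 102064544 to 102179874 on the plus strand (GENCODE 29, GRCh38). Its promoter window, which lies inside this span, is 1 of the 6 with an antioxidant element core. Which start of transcription these cells use was not measured. The other windows with that core are those of IL1A, NFKBIA, CCL28, TNFAIP2 and IL24. Of these genes, IL24 was not measured and the others were not called in siBACH1 against siControl, with differences of -0.57 for IL1A, -0.07 for NFKBIA (0.01 after rescaling), 0.08 for CCL28 and 0.16 for TNFAIP2.

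The other cytokine ligands showed no called difference or were listed at 0. CSF1, the macrophage colony-stimulating factor, was at 26.1 TPM in sip53, 29.8 TPM in siBACH1 and 26.9 TPM in siControl. LIF, an interleukin 6 family cytokine, was at 1.76 TPM in sip53, 2.25 TPM in siBACH1 and 2.16 TPM in siControl. IL36G, an interleukin 1 family cytokine of keratinocytes, stood between 1.23 and 1.42 TPM. IL6, TNF and the colony-stimulating factors CSF2 and CSF3 were listed at 0 in every library. IL24 was at 0.464 TPM in sip53 and 0.0674 TPM in siBACH1 and was listed at 0 in siControl. Of the 11 cytokine ligands, 6 were measured and 0 were called in either knockdown.

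CCL20, the chemokine that attracts CCR6-bearing lymphocytes and dendritic cells, was the only module gene called in the same direction in both knockdowns. It was at 0.870 TPM in sip53, 0.619 TPM in siBACH1 and 2.16 TPM in siControl. The control level was 2.49-fold the sip53 level (difference -0.76) and 3.50-fold the siBACH1 level (difference -0.97). Both calls ended with a pseudocount of 5 TPM, at -0.29 in sip53 and -0.35 in siBACH1. The same control value enters both differences, so they are not independent. CCL20 was under 1 TPM in both knockdown libraries and counted as measured only through that control value. CCL20 lies on chromosome 2, from 227805739 to 227817564 on the plus strand. The promoter window shown for CCL20 lies inside this span, and the start used in these cells was not measured. Only 1.57% of the 31-base words of CCL20 occur in transcripts of another gene.

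The neutrophil-attracting chemokines that signal through CXCR2 were present at low levels, and CXCL1, CXCL3 and CXCL8 were lowest in the control library. CXCL1 was at 6.67 TPM in sip53, 6.44 TPM in siBACH1 and 4.71 TPM in siControl, differences of 0.43 and 0.38. CXCL8, interleukin 8, was at 2.74 TPM in sip53, 3.83 TPM in siBACH1 and 2.55 TPM in siControl, differences of 0.07 and 0.44, the first of which turned to -0.05 after the correction for GC content and length. CXCL3 was at 0.546 TPM in sip53, 1.151 TPM in siBACH1 and 0.479 TPM in siControl, with a siBACH1 difference of 0.54. CXCL2 stayed between 0.452 and 0.569 TPM. None of these 4 passed the threshold in either knockdown. With a pseudocount of 0.1 TPM, CXCL3 was called in siBACH1 at 1.11.

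These chemokine genes sit together on chromosome 4, with CXCL8 at 73740506 to 73743716, CXCL1 at 73869393 to 73871242, CXCL5 at 73995642 to 73998779, CXCL3 at 74036589 to 74038807 and CXCL2 at 74097035 to 74099293. CXCL5, though it shares the NF-kappaB match, was listed at 0 in every library. CXCL1, CXCL2 and CXCL3 are close copies, so reads can be divided among them. Of the 31-base words of their transcripts, 14.4% (CXCL1), 22.5% (CXCL2) and 9.54% (CXCL3) occur in transcripts of another gene. Their summed level depends on that division only through the differing lengths of their transcripts, by which TPM is scaled. It was 7.79 TPM in sip53, 8.11 TPM in siBACH1 and 5.64 TPM in siControl. The sum differed from control by 0.40 in sip53 and 0.46 in siBACH1, short of the threshold in both.

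The remaining chemokines and receptors showed no called difference. CXCL16, a membrane-bound chemokine that is shed from the cell surface, was the most abundant chemokine at 80.6 TPM in sip53, 68.2 TPM in siBACH1 and 72.3 TPM in siControl. CCL28, a chemokine of mucosal epithelia, was at 3.24 TPM in sip53, 2.73 TPM in siBACH1 and 2.52 TPM in siControl. The monocyte chemoattractant CCL2 and the receptor CXCR4 were listed at 0 in every library. CXCL16 thus stood above 84.6% to 87.4% of the genes at 1 TPM or more in each library.

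**Figure D4:**
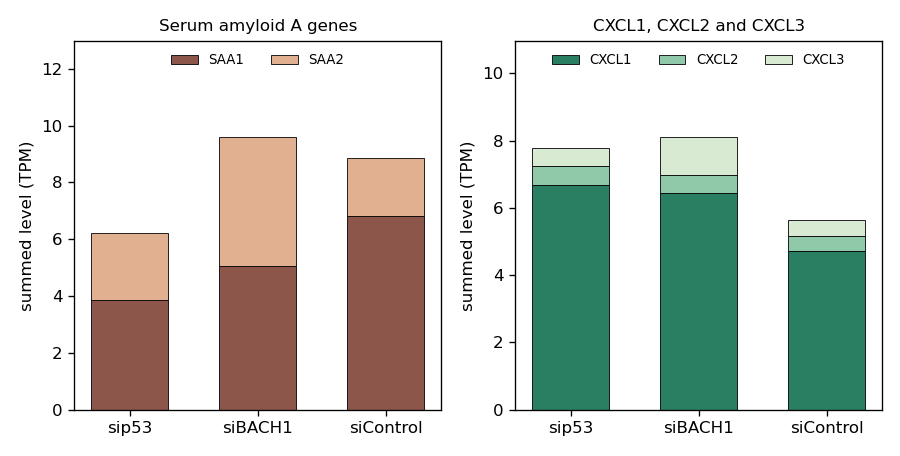
Summed level in TPM of SAA1 and SAA2 (left) and of CXCL1, CXCL2 and CXCL3 (right) in sip53, siBACH1 and siControl, with each gene as a stacked segment. SAA1 takes 61.98% of its pair in sip53, 52.6% in siBACH1 and 77.2% in siControl.

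All 5 NF-kappaB subunits were expressed, and 0 were called in either knockdown. RELA, the p65 subunit, was at 30.6 TPM in sip53, 36.0 TPM in siBACH1 and 35.7 TPM in siControl. NFKB1, the precursor of p50, was at 27.8 TPM in sip53, 24.2 TPM in siBACH1 and 28.99 TPM in siControl. NFKB2, the p52 precursor of the non-canonical pathway, was at 11.8 TPM in sip53, 11.7 TPM in siBACH1 and 15.8 TPM in siControl. NFKB2 was the subunit farthest from control in both knockdowns on this scale, with differences of -0.40 in sip53 and -0.41 in siBACH1. After the correction for GC content and length the NFKB2 difference in sip53 was -0.26. RELB, the non-canonical partner of NFKB2, was at 2.10 TPM in sip53, 1.98 TPM in siBACH1 and 2.48 TPM in siControl. The RELB difference in sip53, -0.17, turned to 0.01 after the same correction. REL was at 9.37 TPM in sip53, 7.59 TPM in siBACH1 and 8.32 TPM in siControl, and 45.9% of its 31-base words occur in transcripts of other genes, so its level is uncertain. The 5 subunits together summed to 81.6 TPM in sip53, 81.5 TPM in siBACH1 and 91.3 TPM in siControl.

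The inhibitors and feedback genes are themselves NF-kappaB targets, and 0 of 5 were called in either knockdown. NFKBIA, which encodes IkappaB-alpha, was at 31.8 TPM in sip53, 35.0 TPM in siBACH1 and 36.8 TPM in siControl. Its ratio to RELA was 1.04 in sip53, 0.971 in siBACH1 and 1.03 in siControl. NFKBIE, which encodes IkappaB-epsilon, was at 4.32 TPM in sip53, 4.35 TPM in siBACH1 and 5.23 TPM in siControl. TNFAIP3, the ubiquitin-editing inhibitor A20, was at 2.30 TPM in sip53, 2.42 TPM in siBACH1 and 3.03 TPM in siControl. These 3 inhibitors were lowest in sip53 and highest in siControl, with differences from -0.29 to -0.07, although the NFKBIA difference in siBACH1 turned to 0.01 after rescaling. The ubiquitin ligase BIRC3 (cIAP2) ran the other way, at 1.48 TPM in sip53, 1.90 TPM in siBACH1 and 1.07 TPM in siControl, differences of 0.26 and 0.49. The adaptor TRAF1 stayed between 1.89 and 2.07 TPM.

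The effector genes, products that act outside the pathway itself, included both serum amyloid A calls and the most abundant module transcripts, LCN2 in sip53 and TNFAIP2 in siBACH1 and siControl. LCN2, lipocalin 2, binds bacterial iron carriers, and it was at 111 TPM in sip53, 81.6 TPM in siBACH1 and 78.1 TPM in siControl. Its sip53 level was 1.43-fold control, a difference of 0.51 that passed the threshold, at 0.61, only after the correction for GC content and length. Over all measured genes the sip53 differences ran against transcript GC content, with a Spearman correlation across 12144 genes, which are not replicates, of -0.39 (-0.21 across 12160 genes in siBACH1), and the LCN2 transcript has a GC content of 56.8%. TNFAIP2, a TNF-induced protein of membrane protrusions, was at 71.1 TPM in sip53, 93.7 TPM in siBACH1 and 83.8 TPM in siControl. ICAM1, the leukocyte adhesion molecule, was at 1.10 TPM in sip53, 1.252 TPM in siBACH1 and 0.710 TPM in siControl, and 23.8% of its 31-base words occur in transcripts of other genes. PTGS2, the inducible cyclooxygenase of prostaglandin synthesis, stayed between 0.706 and 1.00 TPM.

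The serum amyloid A genes encode acute-phase lipoproteins and are near copies on chromosome 11, with SAA1 at 18266174 to 18269977 on the plus strand and SAA2 at 18239223 to 18248643 on the minus strand. SAA1 was at 3.86 TPM in sip53, 5.05 TPM in siBACH1 and 6.83 TPM in siControl. SAA2 was at 2.37 TPM in sip53, 4.56 TPM in siBACH1 and 2.02 TPM in siControl. SAA1 was thus called lower in sip53 (difference -0.69) and SAA2 higher in siBACH1 (0.88, a 2.25-fold level). Of the 31-base words of SAA1 transcripts, 53.2% also occur in SAA2, so the division of reads between them is uncertain. Their summed level was 6.24 TPM in sip53, 9.61 TPM in siBACH1 and 8.85 TPM in siControl, with differences of -0.44 and 0.11. Neither sum passed the threshold. Both single-gene calls also ended with a pseudocount of 5 TPM, at -0.42 for SAA1 in sip53 and 0.44 for SAA2 in siBACH1.

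BACH1 knockdown was also set against p53 knockdown. Of 28 measured module genes, 2 were called higher, IL1R1 (0.63) and SAA2 (0.72), against 2.84% of 12390 genes, and 1 was called lower, IL1A (-0.76), against 3.18%. The sum of SAA1 and SAA2, whose reads are hard to divide, differed by 0.55, short of the threshold. IL1A in sip53 stood at 1.93-fold its siBACH1 level. The siBACH1 library also had the lowest sum of squamous markers, most of it KRT5 and KRT13, and its part in the IL1A value was not tested.

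Pathway genes outside the module were examined in 8 lists of 175 genes, all present in the table, of which 115 were measured in each comparison. In sip53 against siControl, 1 was called higher and 3 lower, with a median of -0.05. In siBACH1 against siControl, 0 were called higher and 3 lower, with a median of -0.11. The background shares were those given above for all measured genes.

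Of the 33 NF-kappaB signalling genes, all were measured, 1 was called higher and 1 lower in sip53, and 0 were called in siBACH1. MAP3K8, a kinase of the ERK branch, was at 4.62 TPM in sip53, 3.10 TPM in siBACH1 and 2.51 TPM in siControl. BCL10, an adaptor of the CARD and MALT1 complex, was at 1.19 TPM in sip53, 1.73 TPM in siBACH1 and 2.71 TPM in siControl. CARD10, its epithelial partner, was at 23.0 TPM in sip53, 23.0 TPM in siBACH1 and 34.9 TPM in siControl, differences of -0.58 in both that ended just inside the threshold. The ubiquitin ligase TRAF2 was at 20.6 TPM in sip53, 24.5 TPM in siBACH1 and 29.2 TPM in siControl.

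In the receptor and adaptor list, 17 of 24 genes were measured and 0 were called in either knockdown. IL1RAP, the co-receptor of IL1R1, was at 48.1 TPM in sip53, 34.2 TPM in siBACH1 and 48.6 TPM in siControl, a siBACH1 difference of -0.49. IL1RL2, the interleukin 36 receptor, was at 2.33 TPM in sip53, 1.63 TPM in siBACH1 and 1.251 TPM in siControl, a sip53 difference of 0.56 that was called, at 0.62, after rescaling. The Toll-like receptor TLR1 was at 1.09 TPM in sip53, 0.415 TPM in siBACH1 and 1.12 TPM in siControl, a siBACH1 difference of -0.58 that was called, at -0.64, after the correction for GC content and length. TLR5 was at 1.27 TPM in sip53, 0.881 TPM in siBACH1 and 1.63 TPM in siControl. In siBACH1 the co-receptor IL1RAP thus stood below its control level, short of the threshold, while IL1R1 was called higher.

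In the interleukin 6 family list, SOCS1, a feedback inhibitor of JAK kinases, was called lower in both knockdowns. It was at 1.53 TPM in sip53, 1.18 TPM in siBACH1 and 3.63 TPM in siControl, differences of -0.87 and -1.09. The same control value enters both differences. SOCS1 peaked below 5 TPM, where 8.13% of genes in sip53 and 9.29% in siBACH1 were called lower. It was 1 of 16 measured genes in sip53 and 1 of 15 in siBACH1, and 0 were called higher. CLCF1, a ligand of this family, was at 4.09 TPM in sip53, 5.54 TPM in siBACH1 and 3.54 TPM in siControl, a siBACH1 difference of 0.53 that was called, at 0.60, after rescaling. IL11 was at 1.14 TPM in sip53, 0.488 TPM in siBACH1 and 0.552 TPM in siControl.

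Among 37 other chemokines and chemokine receptors, 17 were listed at 0 in all 3 libraries. CXCL14, a chemokine of normal squamous epithelium, was at 5.40 TPM in sip53, 2.39 TPM in siBACH1 and 7.08 TPM in siControl. Its siBACH1 difference of -1.25 was called, 1 of 9 measured genes, while 0 of 8 were called in sip53. CXCL17 was at 3.79 TPM in sip53, 1.78 TPM in siBACH1 and 2.32 TPM in siControl, a sip53 difference of 0.53 that was called, at 0.59, after rescaling. CXCR2, the receptor of CXCL1 and CXCL8, was at 1.998 TPM in sip53, 2.25 TPM in siBACH1 and 1.53 TPM in siControl. CCL22 was at 1.84 TPM in sip53, 1.37 TPM in siBACH1 and 1.055 TPM in siControl.

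Other NF-kappaB target genes had 0 of 15 measured called in sip53 and 1 lower in siBACH1, the complement gene C3. C3 was at 7.62 TPM in sip53, 3.35 TPM in siBACH1 and 6.21 TPM in siControl, a siBACH1 difference of -0.73. The death ligand TNFSF10 was at 154 TPM in sip53, 106 TPM in siBACH1 and 138 TPM in siControl. The transcription factor IRF1 was at 35.0 TPM in sip53, 32.4 TPM in siBACH1 and 42.6 TPM in siControl, and the complement factor CFB was at 4.06 TPM in sip53, 5.47 TPM in siBACH1 and 5.34 TPM in siControl. C3, IL1A and CXCL14 were each lowest in siBACH1, the library in which 7 of the 8 squamous markers were lowest as well, and the part of the markers in these values was not tested.

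Interleukin 1 family and inflammasome genes had 0 of 8 measured called in either knockdown. The inflammasome adaptor PYCARD was at 30.6 TPM in sip53, 24.1 TPM in siBACH1 and 35.8 TPM in siControl, and the pore-forming GSDMD was at 28.1 TPM in sip53, 33.03 TPM in siBACH1 and 38.8 TPM in siControl. The DNA sensor AIM2 was at 5.55 TPM in sip53, 5.24 TPM in siBACH1 and 7.01 TPM in siControl. The alarmin IL33 was at 1.349 TPM in sip53, 1.30 TPM in siBACH1 and 0.836 TPM in siControl. AIM2, GSDMD and PYCARD were thus each highest in the control library.

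Genes that control cytokine mRNA decay were all measured. In siBACH1, 10 of 10 had a negative difference, with a median of -0.22 and 0 called, and in sip53 8 of 10 were negative, with a median of -0.16 and 1 called lower. Over all measured genes, 8226 of 12437 were negative in siBACH1 and 7826 of 12412 in sip53. After rescaling 10 of 10 were still negative in siBACH1 (median -0.14), but 6 of 10 in sip53 (median -0.10). The median over all measured genes was then -0.003 in siBACH1 and -0.003 in sip53. The 10 values of a comparison come from the same pair of libraries and are not replicates. The gene called lower in sip53 was RC3H1, the RNA-binding protein roquin 1, at 4.35 TPM in sip53, 5.73 TPM in siBACH1 and 7.45 TPM in siControl. The decay factors ZFP36L1 and ZFP36L2 were at 77.7 and 59.3 TPM in sip53, 49.1 and 53.04 TPM in siBACH1, and 65.5 and 70.01 TPM in siControl. The ribonuclease ZC3H12A was at 9.89 TPM in sip53, 12.5 TPM in siBACH1 and 14.9 TPM in siControl. A nonamer that ZFP36L1 and ZFP36L2 are known to bind, TTATTTATT, occurred in the longest transcript of 12 of the 39 module genes (30.8%). The share was 7.001% of 27410 genes of the table, or 9.75% of the 15896 with a protein-coding longest transcript.

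Prostaglandin genes had 0 of 8 measured called in either knockdown. PTGES, the synthase that acts after PTGS2, was at 65.5 TPM in sip53, 96.1 TPM in siBACH1 and 66.8 TPM in siControl, a siBACH1 difference of 0.52 that was called, at 0.60, after rescaling. HPGD, which degrades prostaglandin E2, was at 224 TPM in sip53, 128 TPM in siBACH1 and 173 TPM in siControl, differences of 0.37 and -0.43. PTGS1, the constitutive cyclooxygenase, was at 0.788 TPM in sip53, 1.98 TPM in siBACH1 and 1.62 TPM in siControl. TBXAS1, which makes thromboxane, was at 4.52 TPM in sip53, 5.32 TPM in siBACH1 and 4.12 TPM in siControl. Between the knockdowns, siBACH1 was called higher than sip53 for PTGS1 (0.74) and lower for HPGD (-0.80). PTGS1 was under 1 TPM in sip53, so in that comparison it counted as measured only through its siBACH1 value.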

How the data were processed

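RNA from 3 Cal-33 libraries was sequenced after column extraction and SMARTER mRNA library preparation, per the labels' protocols. The authors deposited a table of TPM (transcripts per 1000000) with 1 column for each library. Tools named by the submitters' processing notes are bcl2fastq 2.20 and kallisto 0.44.0, a pseudoaligner; the notes also list GRCh38 beside mouse builds with no role for each. Annotation and strand handling: not given in the sources used here. TPM keeps no depth, so depth is unknown and neither counting intervals nor detection limits could be computed. The listed values sum to between 978371 and 979148 per library.

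Differences were computed as log2 ratios with a pseudocount of 1 TPM (Python 3.11.15, pandas 2.3.3). Module genes could all be named, and up to 4 genes per pathway list were named by their largest difference from siControl in either knockdown. Members and lists were chosen with earlier results of these data known. The script was tested on simulated libraries. Coordinates, GC content and 31-base words, the default word length of kallisto, come from GENCODE 29 transcripts; GC content and the nonamer were read in each gene's longest transcript. The correction for GC content and length used lowess (statsmodels 0.14.6). Alternatives varied the pseudocount, filter, scaling, correction, copies and threshold. The level of the transcript targeted by sip53 is not reported here.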

Additional observations from a re-analysis of the deposited data

How the results depend on the processing

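The medians of the module moved by at most 0.1 under every alternative tried, although after rescaling they turned to 0.01 in sip53 and 0.02 in siBACH1, each against siControl, and to -0.04 in siBACH1 against sip53 with a minimum of 5 TPM. The counts of called genes are small and depended on several settings. In sip53 against siControl, the count of lower genes was 2, but 0 with a pseudocount of 5 TPM or a threshold of 2-fold, and 1 with a minimum of 5 TPM (SAA1) or with near-identical copies summed (CCL20). The count of higher genes was 0, but 1 after the GC content and length correction (LCN2) and 2 at the looser threshold tried. In siBACH1 against siControl, 2 genes were higher, but 5 with a pseudocount of 0.1 TPM, 4 without 13 mitochondrially encoded and 86 ribosomal protein genes, 1 with copies summed, 7 at the looser threshold tried, and 0 with a pseudocount of 5 TPM, a minimum of 5 TPM or 2-fold. There 1 gene was lower, but 2 with a pseudocount of 0.1 TPM or after the correction (CCL20 and IL1A), 4 at the looser threshold tried, and 0 with a pseudocount of 5 TPM, a minimum of 5 TPM or 2-fold. In siBACH1 against sip53, 2 were higher, but 3 with a pseudocount of 0.1 TPM or without the mitochondrially encoded and ribosomal protein genes (CXCL3 added), 1 with copies summed, 5 at the looser threshold tried and 0 with a pseudocount of 5 TPM, a minimum of 5 TPM or 2-fold. There 1 was lower, but 2 at the looser threshold tried and 0 with a pseudocount of 5 TPM or 2-fold. Fewer calls with a larger pseudocount, a higher minimum or a higher threshold follow from their construction, and the cause of the other changes was not tested. Of 818 single-gene values under the alternatives, 764 kept their direction and their side of the threshold, and 0 called values changed sign. Part of this tally is fixed by construction. A change of pseudocount, filter or threshold cannot change a sign, and summing copies leaves the values of the other genes as they were. Only rescaling, leaving out genes and the correction for GC content and length could change a sign. No paired analysis was possible because each group has 1 library. The unknown depth limits what can be read from genes near 1 TPM.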
